A study of Mus musculus with 8 samples.

Results

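Matrix metalloproteinases (MMPs), ADAMTS proteases, the related ADAMTS-like proteins and the tissue inhibitors of metalloproteinases (TIMPs) were examined in skin and keratinocyte samples of mice lacking epidermal JunB (JunB cKO) and of wild type (WT) mice. The genes were chosen by their symbols, Mmp, Adamts, Adamtsl or Timp followed by a number, which gave 51 of 51663 gene names. Each of the 3 deposited tables held all 51, among 26457 gene rows (unperturbed keratinocytes), 47990 (hair plucking) and 46726 (wounds). They comprised 23 MMPs, 19 ADAMTS proteases, 5 ADAMTS-like proteins and 4 TIMPs.

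All mice were on the C57BL/6 background. In JunB cKO mice a Cre recombinase under the K14 promoter, which is active in basal epidermal cells, deleted floxed JunB, so that cells of the dermis kept the gene; the labels write the genotypes as JunB -/- and JunB +/+. The authors describe the unperturbed samples as dorsal skin of mice aged 60 days, whereas the labels call them keratinocytes, isolated with trypsin. Back hair was plucked at an age of 54 days and skin was collected at 58 days, that is 4 days later. The wound samples are labelled as skin 30 days after wounding. The authors' wound healing protocol used full thickness excisions of 6 mm, 4 per mouse. Whether this protocol gave these samples, and the age at wounding, was not given in the sources used here. Each group's RNA was a pool from 3 samples. Of the 8 libraries in the labels, wounds have 2 per genotype and the other conditions 1. Every table, however, holds 1 value per genotype and gene, so no difference below has a replicate check and no test was possible. The plucked and wound tables are tied to their conditions by the names of the tables only.

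Values are FPKM, reads scaled to transcript length and to the mapped reads of a library, which allows levels of different genes in a table to be compared. The tables were normalized separately, so levels from different tables are only set side by side. For 1 kb of transcript, 1 FPKM stood for about 13.3 reads in unperturbed WT and 3.92 in unperturbed JunB cKO, 10.1 in plucked JunB cKO, 34.1 in WT wounds and 31.4 in JunB cKO wounds; plucked WT gave no estimate. The values for plucked JunB cKO and JunB cKO wounds rest on 4 and 3 genes, and reads quoted below are approximate, from the longest coding transcript and, in wounds, over both libraries. Junb itself had lower values in JunB cKO in each table, with log2 ratios, explained below, of -3.05 (unperturbed), -1.71 (hair plucking) and -1.06 (wounds). Gapdh was listed at 0 in both genotypes of the unperturbed table, so an FPKM of 0 can be a failed estimate and is given below only as listed at 0. Fibroblast markers (6 genes) summed to 13.7 FPKM in unperturbed WT and 12.5 in JunB cKO, against 5109 and 1856 after hair plucking and 10532 and 13412 in wounds. Keratinocyte markers summed to at least 2662 FPKM in every column. The plucked samples, for which the labels name both keratinocyte and skin biopsy, thus contained dermal RNA, and the unperturbed samples little of it.

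MMPs are zinc-dependent endopeptidases that are secreted or membrane-bound and are made as inactive precursors. Collagenases cut fibrillar collagen, and gelatinases digest denatured collagen and basement membrane collagen. Of the stromelysins, those encoded by Mmp3 and Mmp10 act on proteoglycans and glycoproteins and can activate other MMPs. ADAMTS proteases carry thrombospondin repeats and process proteoglycans and procollagens, whereas ADAMTS-like proteins share these repeats but lack the protease domain. TIMPs bind the active site of MMPs, and TIMP3 also inhibits ADAMTS enzymes. AP-1, a dimer of Jun and Fos proteins to which JunB belongs, is a well-known regulator of several MMP genes through a short motif close to the transcription start.

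A group of 10 MMP genes lies within 427 kb on chromosome 9 of GRCm38 (7272514 to 7699585), in the order Mmp13, Mmp12, Mmp1b, Mmp3, Mmp1a, Mmp10, Mmp8, Mmp27, Mmp20 and Mmp7. Promoter windows from RefSeq (GRCm38.p6), from 250 bases before to 50 bases after an annotated start, were found for 36 of the 51 genes. The AP-1 motif TGAGTCA, searched on both strands (reverse TGACTCA), occurred in 7 of these 36 genes, or 19.4%, against 5.95% of the 27025 genes with a window. All 7 were in the chromosome 9 group, and 0 of the other 26 genes with a window held it. These genes are related in sequence, so their windows are not independent of each other. The motifs are shown with 12 bases on each side, 5′ to 3′ on the strand that reads TGAGTCA, with the motif in capitals, because JunB is an AP-1 protein.
Mmp13, chr9:7272467-7272497, minus strand: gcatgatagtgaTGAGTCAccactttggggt
Mmp12, chr9:7347318-7347348, plus strand: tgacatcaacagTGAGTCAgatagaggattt
Mmp1b, chr9:7388101-7388131, minus strand: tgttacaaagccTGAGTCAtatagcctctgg
Mmp3, chr9:7445764-7445794, plus strand: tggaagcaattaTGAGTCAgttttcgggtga
Mmp1a, chr9:7464056-7464086, plus strand: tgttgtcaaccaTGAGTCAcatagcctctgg
Mmp10, chr9:7502267-7502297, plus strand: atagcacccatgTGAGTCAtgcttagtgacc
Mmp7, chr9:7692015-7692045, plus strand: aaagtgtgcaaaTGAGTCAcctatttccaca

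Counted from the annotated start, the motif began between position -93, in Mmp1b, and position -35, in Mmp13. Mmp12 and Mmp7 each have a second annotated start whose window held no such motif. A TATA box (TATAAA, searched on the coding strand only) was present in 11 of the 39 windows of these genes, or 28.2%, against 8.32% of all 32851 windows. Most of these windows were in the chromosome 9 group too, and outside it only Adamts1, Adamtsl2 and Mmp21 had a match. The first match in a window began between position -123, in Mmp7, and position 5, after the start, in Mmp12. A match of letters is a description of the sequence and does not show that a protein binds there.

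**Figure D1:**
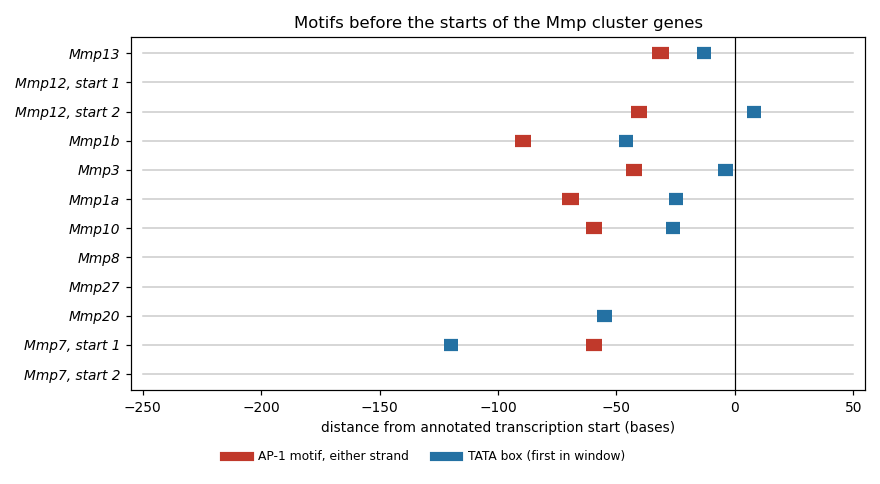
Positions of the AP-1 motif (red) and of the first TATA box (blue) in promoter windows of the 10 genes of the chromosome 9 group, ordered along the chromosome. The x axis gives the distance from the annotated transcription start in bases; Mmp12 and Mmp7 have 2 annotated starts. The AP-1 motif lies in windows of 7 genes, and no motif of either kind is found for Mmp8 and Mmp27.

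Differences between genotypes are given as a log2 ratio, log2((cKO + 1)/(WT + 1)), of FPKM, and a gene was counted as higher or lower at a 2-fold difference on this scale, which understates differences of genes with a low FPKM. In unperturbed keratinocytes, 1 of the 51 genes was at least 2-fold higher in JunB cKO, where 9.31% of all gene rows were, and 0 were at least 2-fold lower, where 0.858% of all rows were. After hair plucking, 3 genes (5.88%) had higher and 12 (23.5%) had lower values in JunB cKO, beside 6.5% and 5.65% of all rows. In wounds, 2 genes (3.92%) were higher and 0 lower, beside 2.16% and 1.98% of all rows. Restricted to genes that reached an FPKM of 1 in WT or JunB cKO, the plucked table had 12 of 38 lower (31.6%) and 3 of 38 higher (7.89%), beside 16% and 18.4% of all such rows. In wounds 2 of 39 such genes (5.13%) were higher, beside 5.68% of such rows, and 0 lower, beside 5.19%, and in unperturbed keratinocytes 1 of 19 (5.26%) was higher, beside 15.4%, and 0 lower, beside 1.42%. The 38 genes of the plucked table had a median log2 ratio of -0.36, beside 0.03 for all such rows; for the 39 such genes in wounds it was 0.02, beside 0.01.

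**Figure D2:**
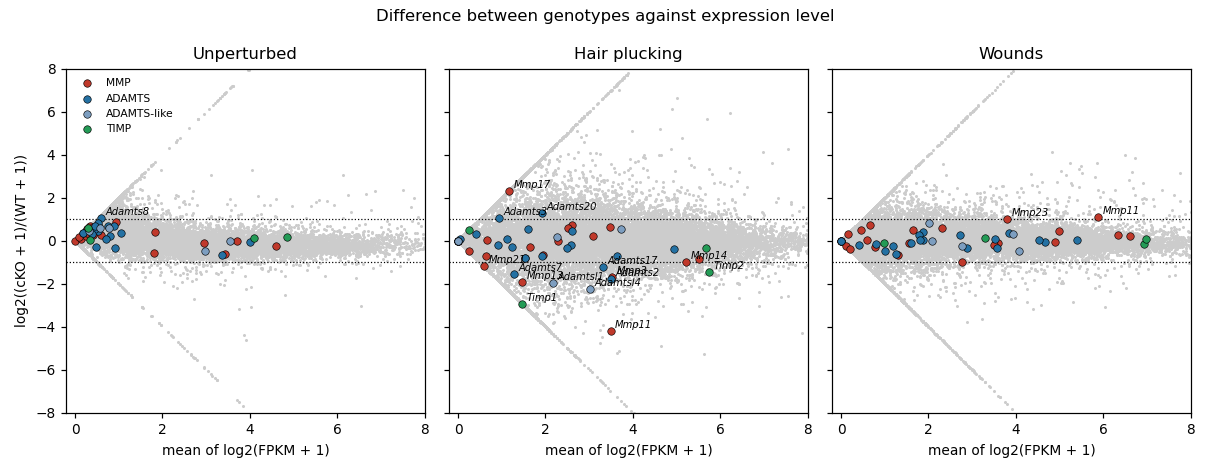
Log2 ratio of JunB cKO over WT FPKM with a pseudocount of 1 (y axis) against the mean of log2(FPKM + 1) of both genotypes (x axis) in the 3 tables. Grey points are all gene rows within the axes, coloured points are the 51 genes by family, dotted lines mark the 2-fold limit, and genes beyond it are named. After hair plucking 12 genes lie below the lower line and 3 above the upper line, while in wounds Mmp11 and Mmp23 lie above it.

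In unperturbed keratinocytes, 8 of the 51 genes reached an FPKM of 10 in either genotype, and none of the 8 differed 2-fold. The inhibitor genes Timp3 (25.95 FPKM in WT against 29.4 in JunB cKO) and Timp2 (15.4 and 16.6) and the membrane-bound collagenase gene Mmp14 (25.7 and 21.3) were the leading genes together with Adamts1 (15.4 and 14.9), a protease of aggrecan and versican. Mmp2, which encodes gelatinase A, was at 12.1 in WT against 11.8 in JunB cKO, and Adamtsl5 at 10.8 and 10.5. These 6 genes had log2 ratios between -0.26 and 0.17.

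Mmp28, which encodes epilysin, an MMP known from keratinocytes, was at 12.2 FPKM in WT against 7.70 in JunB cKO (log2 ratio -0.60), and Adamts14, a procollagen N-proteinase gene, at 12.04 and 7.12 (-0.68). Both were lower in JunB cKO without reaching the 2-fold limit. These genes, together with Mmp15, Adamtsl5 and the barely detected Mmp10, were the 5 genes with a higher FPKM in unperturbed WT than in WT skin after hair plucking or in wounds. Mmp28 was at 3.61 in plucked WT skin and at 2.14 in WT wounds, Adamts14 at 5.28 and 2.18, and Mmp15, a membrane-type MMP gene, at 7.03, 3.80 and 1.65 in the 3 tables. Of the 51 genes, 28 had their highest WT FPKM in wounds and 14 after hair plucking. The wound sample was skin with its dermis and not isolated keratinocytes. The 3 tables were normalized separately, and the share of all gene rows with such an order was not determined. These counts therefore do not set the 51 genes apart from other genes. An FPKM of 1 in either genotype was reached by 19 genes (unperturbed), 38 (hair plucking) and 39 (wounds), while 1, 7 and 4 genes were listed at 0 in both genotypes. The genes not named for a condition had an FPKM under 10 and a log2 ratio (pseudocount 1) within the limit there, although FPKM values alone differed by more for some low genes, such as Mmp8 after hair plucking, at 0.980 against 0.207.

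Most other genes of the set were close to the level of sensory receptor genes in the unperturbed JunB cKO library. Receptor genes for odorants, pheromones and taste, which are mainly transcribed in sensory organs, had a median of 0.543 FPKM there and of 0 in WT. The JunB cKO value of 33 of the 51 genes was within 2 times this median, and 29 of the 33 had a lower WT value than the median. The only gene past the limit, Adamts8, was at 0.0517 FPKM in WT against 1.17 in JunB cKO, about 2.5 against 16.6 reads, and its log2 ratio was 0.63 with the receptor median subtracted. Timp1 was at 0.258 and 0.292, about 3 reads and 1 read, and Timp4 was listed at 0 in WT and had 0.495 in JunB cKO. Of the matrix turnover genes described further down, Serpinb2, which encodes a plasminogen activator inhibitor of keratinocytes, was lower in unperturbed JunB cKO samples, at 630 against 288, and Il1a was higher, at 1.87 against 5.91. Klk4, Spock1 and Bcan also passed the limit upwards, with at most 2.58 in JunB cKO.

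**Figure D3:**
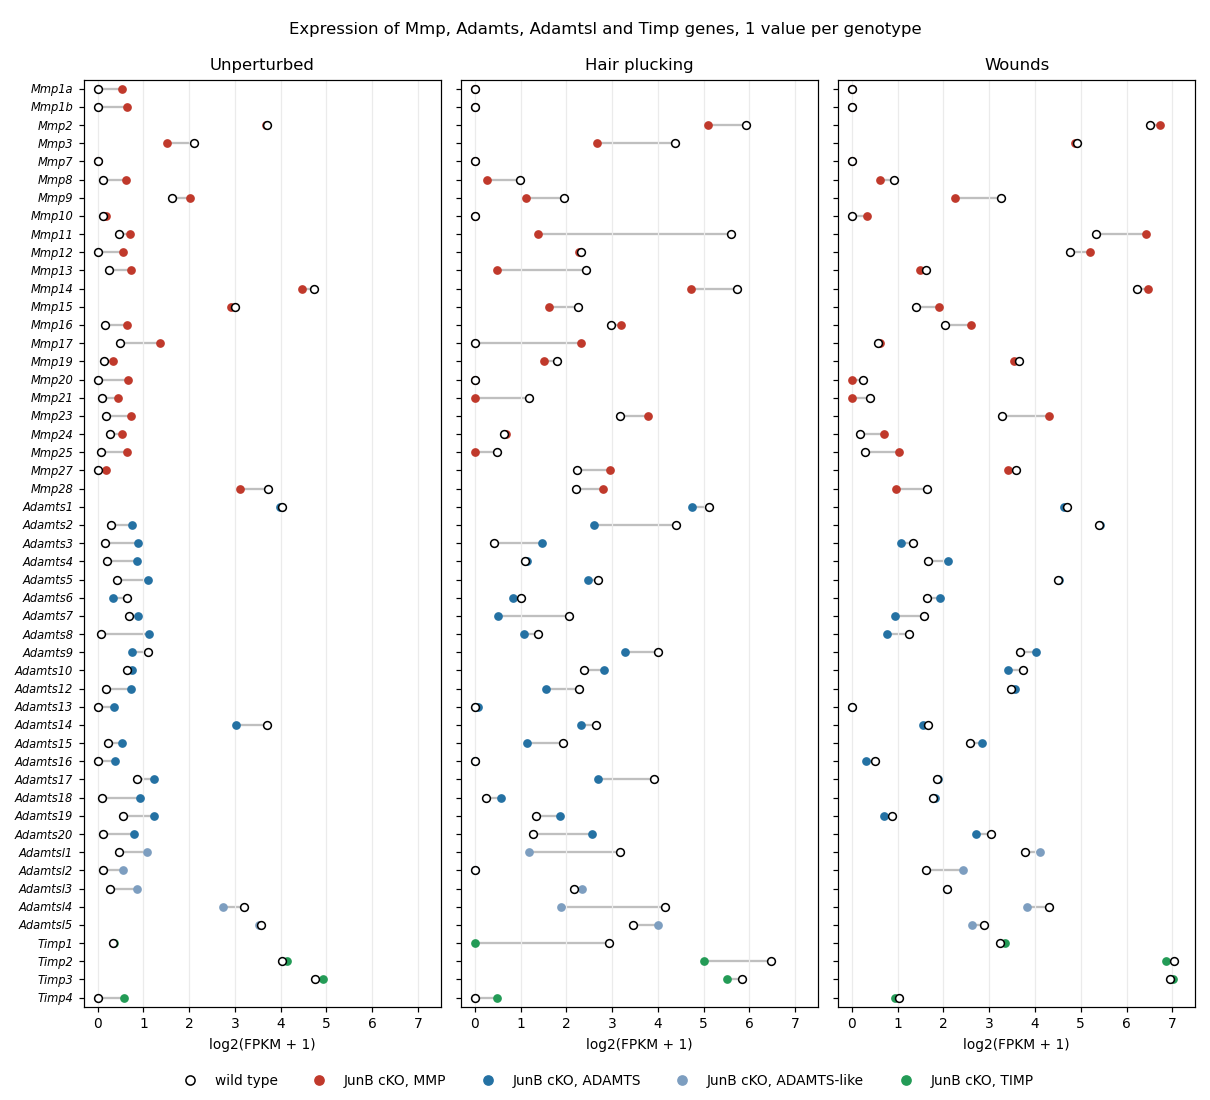
Log2(FPKM + 1) of the 51 genes (rows) in WT (open circles) and JunB cKO (filled circles, coloured by family) in the 3 separately normalized tables, with 1 value per genotype joined by a grey line. Most rows of the wound panel show short lines, whereas in the plucked panel Mmp11, Timp1, Adamtsl4, Adamtsl1 and Mmp13 have long lines with JunB cKO on the left.

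After hair plucking, the summed FPKM of the MMP genes was 222 in WT against 114 in JunB cKO, that of the ADAMTS genes 115 and 76.2, that of the ADAMTS-like genes 38.2 and 23.1, and that of the TIMP genes 151 and 76.1. These sums are carried by a few abundant genes. Of the 23 MMP genes 12 had lower, 6 higher and 5 equal values in JunB cKO (median log2 ratio -0.04), of the 5 ADAMTS-like genes 2 had lower and 2 higher values, and of the 4 TIMP genes 3 had lower values. The genes more than 2-fold lower included members of every family: Mmp3, Mmp11, Mmp13, Mmp14, Mmp21, Adamts2, Adamts7, Adamts17, Adamtsl1, Adamtsl4, Timp1 and Timp2. Among them, Mmp21 and Timp1 were listed at 0 in JunB cKO, which can be a failed estimate.

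Mmp11, which encodes stromelysin-3, an MMP known from connective tissue cells during remodelling, had the log2 ratio farthest from 0 at the pseudocount of 1. With pseudocounts of 0.1 and 0.01, Timp1 and Mmp17, each listed at 0 in 1 genotype, were farther from 0. Mmp11 was at 47.3 FPKM in WT against 1.61 in JunB cKO, 29.4-fold lower by the FPKM values (log2 ratio -4.21). The value in JunB cKO stands for about 37.3 reads. Mmp11 (ENSMUSG00000000901.17) lies on chromosome 10 from 75923222 to 75936496 on the minus strand and overlaps Chchd10 on the opposite strand, which was at 19.3 in WT against 6.31 in JunB cKO. Whether counting used the strand was not given in the sources used here, and without it reads of overlapping genes cannot be told apart; this also touches Timp1, Timp3, Timp4 and Adamts7, and Mmp12 with Mmp1b. A second row with the symbol Mmp11 in this table was listed at 0 in both genotypes. Its RefSeq start (GRCm38.p6) lies inside these GENCODE bounds and not at their end. The 250 bases before the RefSeq start are shown because Mmp11 was past the limit in opposite directions after hair plucking and in wounds, and the window at this start held neither an AP-1 motif nor a TATA box as searched.
Mmp11, chr10:75932503-75932752, minus strand: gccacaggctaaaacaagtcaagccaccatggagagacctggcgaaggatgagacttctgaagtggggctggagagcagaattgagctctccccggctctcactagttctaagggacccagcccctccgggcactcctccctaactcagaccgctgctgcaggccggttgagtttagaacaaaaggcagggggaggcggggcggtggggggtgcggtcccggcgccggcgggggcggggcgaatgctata

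Of the chromosome 9 group, Mmp3 and Mmp13 were more than 2-fold lower in plucked JunB cKO skin. Mmp3, which encodes stromelysin-1 (ENSMUSG00000043613.8), was at 19.7 FPKM in WT against 5.40 in JunB cKO (log2 ratio -1.70), and Mmp13, the main interstitial collagenase of the mouse (ENSMUSG00000050578.10), at 4.36 and 0.408 (-1.93), the latter about 11 reads. Mmp12, which encodes macrophage elastase and also holds the AP-1 motif, was at 3.97 and 3.85. The other 4 genes with the motif, Mmp1a, Mmp1b, Mmp7 and Mmp10, were listed at 0 in both genotypes, so only 3 of the 7 genes with the motif reached an FPKM of 1. Without the motif, 8 genes with a window were also more than 2-fold lower, and 2 more had no window.

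The 250 bases before the starts of Mmp3 and Mmp13 are given on the plus strand, as these were the motif genes past the limit, with the AP-1 motif and the TATA box in capitals. In Mmp13 the motif reads TGACTCA on this strand.
Mmp3, chr9:7445572-7445821: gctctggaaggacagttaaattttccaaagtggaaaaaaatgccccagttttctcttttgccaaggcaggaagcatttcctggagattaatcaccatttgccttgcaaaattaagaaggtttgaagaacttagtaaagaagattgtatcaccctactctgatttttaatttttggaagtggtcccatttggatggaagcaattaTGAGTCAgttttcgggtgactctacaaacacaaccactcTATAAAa
Mmp13, chr9:7272264-7272513: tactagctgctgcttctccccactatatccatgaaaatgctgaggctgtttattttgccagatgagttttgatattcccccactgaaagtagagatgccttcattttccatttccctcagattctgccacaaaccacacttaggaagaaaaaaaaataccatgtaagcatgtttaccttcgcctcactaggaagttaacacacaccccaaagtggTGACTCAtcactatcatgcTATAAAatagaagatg

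The abundant gelatinase and membrane-type genes differed less after hair plucking. Mmp14, whose protein activates pro-MMP2 at the cell surface, was at 52.1 FPKM in WT against 25.3 in JunB cKO (log2 ratio -1.01), just past the limit, and Mmp2 at 59.9 and 33.3 (-0.83), just short of it. Mmp9, which encodes gelatinase B, was at 2.85 and 1.18 (-0.83). Mmp21 was at 1.27 in WT but listed at 0 in JunB cKO. With higher values in JunB cKO, Mmp17, a membrane-type gene, was listed at 0 in WT but had 4.01 in JunB cKO. Mmp23 was at 7.98 and 12.9, Mmp28 at 3.61 and 6.00 and Mmp27 at 3.69 and 6.80, all higher in JunB cKO within the limit.

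Among the ADAMTS genes after hair plucking, Adamts2, which encodes the main procollagen I N-proteinase of skin, was at 19.98 FPKM in WT against 5.04 in JunB cKO (log2 ratio -1.80). Its relative Adamts3 was higher in JunB cKO, at 0.329 and 1.79 (1.07), and Adamts14 was at 5.28 and 4.00, so the 3 procollagen N-proteinase genes did not differ in 1 direction. Adamts17 was at 14.2 and 5.46 (-1.23), and Adamts7, a protease of cartilage oligomeric matrix protein, at 3.15 and 0.419 (-1.55). Of the 7 proteoglycan-cleaving ADAMTS genes, 5 were lower and 2 higher in JunB cKO, and only Adamts20, known for its part in melanoblast migration, passed the limit, at 1.42 and 4.88 (1.28). Adamts1 was at 34.0 and 25.8 and Adamts9 at 15.0 and 8.73. Adamtsl4, whose protein binds fibrillin microfibrils, was at 16.7 and 2.68 (-2.27) and Adamtsl1 at 8.01 and 1.28 (-1.99), whereas Adamtsl5 was at 10.01 and 15.03.

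Timp2 was the most abundant gene of the set in plucked WT skin, at 87.3 FPKM, and was at 31.1 in JunB cKO (log2 ratio -1.46), below Timp3. Timp1, an inducible inhibitor (ENSMUSG00000001131.11; chromosome X from 20870166 to 20874735), was at 6.69 in WT but listed at 0 in JunB cKO. It lies within Syn1, which is on the opposite strand and was at 0.661 and listed at 0. Timp3, whose protein is bound to the matrix, was at 56.6 and 44.5 (-0.34), and Timp4 was listed at 0 in WT but had 0.396 in JunB cKO. The 2 genes with the higher levels therefore differed unequally, and Timp3 was the leading gene in JunB cKO.

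Markers of several dermal cell types were lower in plucked JunB cKO skin too. All 6 fibroblast markers were lower, with log2 ratios from -2.26 (Col3a1) to -0.43 and a median of -0.89. All 8 macrophage markers were lower, with a sum of 283 FPKM in WT against 97.1 in JunB cKO, as were all 3 skeletal muscle markers in the table, with 78.5 and 13.7. No marker of these 3 lists was listed at 0. Other dermal lists were mixed. Of 4 endothelial markers Cdh5 was past the limit, at 25.99 against 10.6, and 2 had slightly higher values, of 4 adipocyte markers Fabp4 was lower, at 125 against 27.4, while Adipoq was at 8.76 against 17.4, and all 4 smooth muscle and pericyte markers had lower values, 1 of them past the limit. In addition, 4 of 5 keratinocyte markers were higher in JunB cKO, while Krt14 was lower, at 2446 against 1709. All 5 were within the limit. Of 10 neutrophil markers, S100a8 and S100a9, which keratinocytes also express, were past the limit upwards. S100a8 was listed at 0 in WT but had 152 FPKM in JunB cKO, and S100a9 was at 2.56 and 250. Csf3r was lower, at 3.55 against 0.551, and 6 of the 10, among them Ly6g, Mpo and Elane, were listed at 0 in both genotypes. In such bulk samples fewer cells of a type and less RNA per cell cannot be told apart. Mmp11, Timp1 and Adamtsl4 had ratios below the lowest fibroblast marker, that of Timp1 (-2.94) resting on a JunB cKO value listed at 0. However, Cd68, a macrophage marker, at -2.31, and the muscle markers Ckm, at -2.85, and Myh4, at -2.32, were below Adamtsl4 as well. Relative to the fibroblast median, a centring chosen after the values had been seen, 5 genes were at least 2-fold lower and 13 at least 2-fold higher in JunB cKO, beside 1.86% and 19.3% of all rows, with Mmp11 at -3.32. The part of these markers in the differences of protease genes was not tested.

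**Figure D4:**
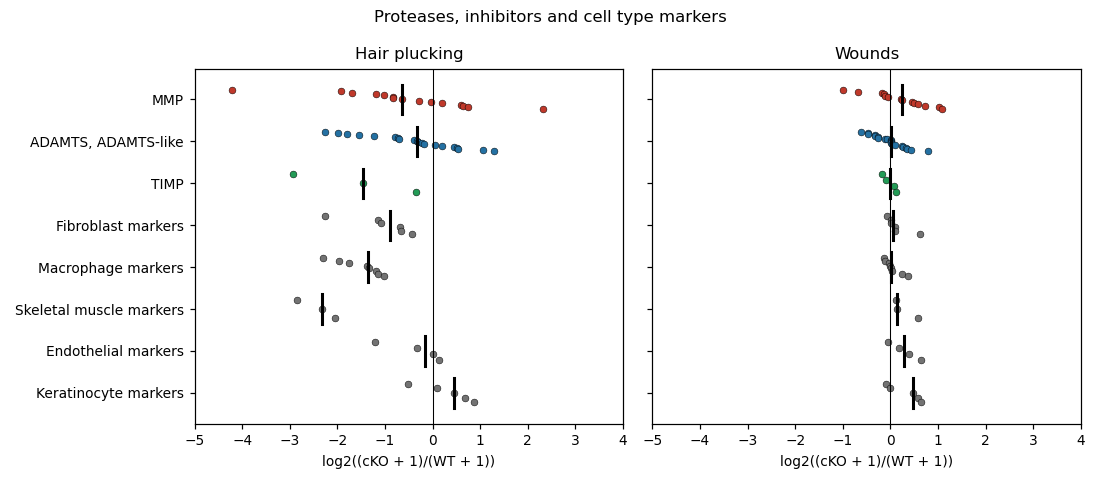
Log2 ratio of JunB cKO over WT FPKM with a pseudocount of 1 (x axis) for MMP, ADAMTS and ADAMTS-like, and TIMP genes that reached an FPKM of 1, and for marker genes of 5 cell types, after hair plucking and in wounds. Each point is 1 gene and black bars are medians. After hair plucking, all fibroblast, macrophage and skeletal muscle markers lie left of 0 together with most protease and inhibitor genes, and Mmp11 lies at -4.21; in wounds all points of the protease and inhibitor genes lie between -0.998 and 1.09.

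Other genes of matrix turnover were mixed after hair plucking. Of 12 other matrix proteases, 4 were more than 2-fold lower in JunB cKO, namely Htra1, at 312 FPKM in WT against 141 in JunB cKO, Adam12, at 8.59 and 0.187, Tll1 and Adam19, while Fap, a serine protease gene of activated fibroblasts, was higher, at 2.28 and 13.97. Of 8 activator genes, Plau, which encodes urokinase, was lower at 17.6 and 7.03, as were Plat and Ctsk, while its receptor gene Plaur was higher at 3.56 and 16.3 and Furin, whose protein activates membrane-type MMPs, at 33.1 and 83.6. Reck, a membrane-bound MMP inhibitor gene, was at 6.82 and 2.79, the only one of 8 other inhibitors and surface regulators past the limit. Of 16 substrates, 5 were lower, namely Col1a1, Col1a2, Col3a1, Eln and Fbn1, while Col17a1, which encodes a collagen of the epidermal basement membrane, was higher, at 179 and 369. Of 9 inducer genes, Il1a, at 6.06 and 15.4, and Tnf, listed at 0 and at 1.29, were higher, while Il1b, at 6.43 and listed at 0, Egf and Fgf7 were lower.

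In wounds, the summed FPKM of the MMP genes was 309 in WT against 398 in JunB cKO, that of the ADAMTS genes 152 in both, that of the ADAMTS-like genes 43.2 and 42.2, and that of the TIMP genes 261 and 252. Mmp11 was 2.16-fold higher in JunB cKO, at 39.2 FPKM in WT against 84.9 in JunB cKO (log2 ratio 1.09), and Mmp23 2.14-fold higher, at 8.73 and 18.7 (1.02). These were the only genes of the set past the limit on the log2 ratio with a pseudocount of 1. By the FPKM values alone, Mmp24, Mmp25 and Adamtsl2 also differed by over 2-fold upwards, and Mmp9, Mmp28 and Adamts7 by 2.26-fold, 2.23-fold and 2.13-fold downwards. Mmp11 thus differed in opposite directions after hair plucking and in wounds, and its neighbour Chchd10 was at 24.4 and 26.2 in wounds. The stated reads per FPKM put Mmp11 at about 3060 and 6101 reads in wounds, so that counting error is small, while the spread between wounds is not known.

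Mmp9 showed the lowest ratio in wounds, at 8.56 FPKM in WT against 3.79 in JunB cKO (log2 ratio -0.998, just inside the limit). Mmp9 and Mmp8 are known from neutrophils, and Mmp8 was at 0.893 and 0.533. Of 10 neutrophil markers, 6 were higher in JunB cKO wounds and 1 lower, with sums of 50.4 and 224 FPKM. Most of the sum came from S100a8 and S100a9, which keratinocytes also express. Besides these, Csf3r was past the limit, at 1.80 against 5.60, and Cxcr2 was at 0.794 and 1.57. Ly6g, Mpo and Elane were listed at 0 in both genotypes. Mmp12 was at 26.05 in WT against 35.8 in JunB cKO wounds (0.44), beside macrophage markers with sums of 546 and 538.

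All 6 membrane-type MMP genes had higher values in JunB cKO wounds, by less than 2-fold on this scale, while the 51 genes had 25 higher and 22 lower. Mmp14 was at 73.5 FPKM in WT against 87.6 in JunB cKO, Mmp16 at 3.07 and 5.12 and Mmp15 at 1.65 and 2.74. The other membrane-type genes had low values, with Mmp25 at 0.225 and 1.03, Mmp24 at 0.138 and 0.627 and Mmp17 nearly equal at 0.486 and 0.534. Mmp2 was at 89.9 and 105. Mmp3 and Mmp13, both lower after hair plucking in JunB cKO, were at 29.0 and 28.2 and at 2.08 and 1.81 in wounds. Mmp19 was at 11.6 and 10.6, Mmp27 at 10.96 and 9.56, and Mmp28 at 2.14 and 0.959 (-0.68).

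The inhibitors led the set in wounds as well. Timp2 was at 130 FPKM in WT against 115 in JunB cKO, Timp3 at 122 and 128, Timp1 at 8.40 and 9.21 and Timp4 at 1.03 and 0.910, with log2 ratios between -0.18 and 0.12. Adamts2 was at 41.3 and 41.6, Adamts1 at 24.9 and 23.8, Adamts5, an aggrecanase gene, at 21.7 and 22.1, Adamts9 at 11.7 and 15.2, Adamts10 at 12.4 and 9.65 and Adamts12 at 10.1 and 10.9. Adamtsl4 was at 18.8 and 13.2, Adamtsl1 at 12.7 and 16.2 and Adamtsl2 at 2.07 and 4.34 (0.80). Fibroblast markers had a median log2 ratio of 0.06 in wounds. No gene among the activators, other inhibitors, other matrix proteases and substrates was past the 2-fold limit there, and of the inducers Il1b, at 4.25 and 13.7, and Tgfb1, at 6.88 and 19.3, were higher and Tnf lower.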

How the data were processed

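FPKM values per gene locus were used as deposited, with 1 value per genotype in each of 3 tables. The authors depleted rRNA, sequenced single-end stranded reads of 75 bases, trimmed and filtered them with the FASTX-toolkit, aligned them to GRCm38 with TopHat 2.1.0 or HISAT2 and calculated FPKM with Cufflinks 2.2.1 and Cuffdiff; the annotation and the use of strand in counting were not given in the sources used here. The authors' fold changes, test statistics, p-values and q-values, also in the tables, were not used. Columns were assigned to genotypes by the names in the tables, and for wounds the value covers both libraries. For each symbol the row with the largest summed FPKM was taken. Log2 ratios had a pseudocount of 1 FPKM and a limit of 2-fold. Reads per FPKM were estimated from steps in the values of receptor genes of 880 to 1000 bp. Named were genes with an FPKM of at least 10, genes past the limit and all Timp genes; genes outside this rule were picked with their values in view. The members and lists were chosen with earlier results of these data known. Coordinates and identifiers come from GENCODE M21 (GRCm38). Python 3.11.15, pandas 2.3.3, numpy 2.4.6 and matplotlib 3.10.9 were used. Other pseudocounts, fold limits, centrings, a minimum FPKM and sums over loci were tried as alternatives. FPKM gives no counting interval, and no spread between animals could be estimated. The result for 1 gene of the lists is not reported here.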

Additional observations from a re-analysis of the deposited data

Results flagged for a closer look

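Mmp11 was lower in JunB cKO after hair plucking and higher in JunB cKO in wounds, each time past the 2-fold limit, with log2 ratios of -4.21 and 1.09. The ratio after hair plucking minus that in wounds was -5.30. Each ratio rests on 1 value per genotype, and the difference between the conditions was not tested.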

How the results depend on the processing

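The log2 ratios of the genes past the limit kept their direction under every setting tried. For most settings this was fixed in advance. A pseudocount, fold limit or minimum FPKM cannot change a direction, and the repeated rows summed over loci were listed at 0. Subtracting the receptor median, which was 0 after hair plucking and in wounds, could change it only in unperturbed keratinocytes. The centrings could change it in any condition. Counts of genes at least 2-fold higher or lower in JunB cKO are given with the share of all rows at the same setting. With a pseudocount of 0.1 FPKM, unperturbed keratinocytes had 28 higher genes (37.7% of rows), hair plucking 5 higher (10.1%) and 16 lower (8.42%), and wounds 6 higher (6.41%) and 5 lower (7.44%). With 0.01 FPKM, unperturbed keratinocytes had 30 higher (39%) and 1 lower (2.51%), hair plucking 6 higher (10.6%) and 16 lower (8.93%), and wounds 6 higher (8.21%) and 5 lower (11.1%). At 1.5-fold, unperturbed keratinocytes had 12 higher (26.2%) and 2 lower (4.15%), hair plucking 6 higher (10.8%) and 19 lower (9.68%), and wounds 5 higher (5.61%) and 3 lower (4.95%). Centring on expressed rows gave 2 higher genes in unperturbed keratinocytes (14.3%) and 1 lower in wounds (2.03%). Subtracting the receptor median left 0 higher in unperturbed keratinocytes (3.55%). Centring on fibroblast markers, added after the data were seen, gave 13 higher (19.3%) and 5 lower (1.86%) for hair plucking; wounds had 1 of each (1.96% and 2.21%), with Mmp23 at 0.96. A minimum FPKM of 1 and summing over loci changed no count, and neither could have done so. With the pseudocount of 1, any gene past the limit has an FPKM of at least 1. The repeated rows added by summing were listed at 0. A small pseudocount raises ratios of low values by construction; the cause of the other changes was not tested. No paired analysis was possible because the wound table has 1 value per genotype, and for the same reason no fit without 1 library was run.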
